A study of Mus musculus with 8 samples.

Results

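The genes described here are the ligands of the tumour necrosis factor (TNF) superfamily, their receptors and the TRAF adaptor proteins, as measured in the RNA of mouse pancreatic cancer cells. They were chosen by name from the deposited count table as protein-coding genes whose symbol starts with Tnfsf, Tnfrsf or Traf and a digit, with Tnf, Fas, Fasl, Ltbr, Cd40, Lta and Ltb added. The rule finds 49 of the 39179 genes in the table, under 48 symbols, because Tnfrsf22 is listed under 2 Ensembl identifiers. Of these, 15 encode ligands, 24 receptors, 7 TRAF adaptors and 3 proteins named for their binding to TRAF3. Expression was sufficient for a test in 28 of them.

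The cancer cells carry a green fluorescent label and, on a mixed FVB/B6 background, a genotype that includes p48Cre, ROSA_rtTAL+ and p53L+. Both arms share that genotype and the same culture: the cells grew for 72 h beside pancreatic stellate cells, a fibroblast-like type marked with a red protein, and the serum was dialyzed and kept at 0.5%. A neutralizing antibody against sonic hedgehog (SHH) was present at 20 µg/mL in 4 libraries and absent from the other 4. Green cells were sorted out of the cultures and only their polyA RNA was sequenced, so the stellate cells' own TNF family genes were not measured. The Cre is driven by p48, a transcription factor of pancreatic cells, and rtTA is a transactivator that responds to doxycycline. The labels do not say whether the cells are a single clone, mention no doxycycline and name no control antibody. They call the 4 libraries of an arm biological samples without saying what separates them, so p-values measure the spread between these samples. The comparison asks how TNF family transcripts of the cancer cells differ when SHH is neutralized in the mixed culture.

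TNF family ligands are mostly trimers at the cell surface or shed from it, and each binds 1 or a few receptors. Some receptors carry a death domain and can recruit TRADD, FADD and caspase-8 to start cell death. Most others bind TRAF proteins, which lead to NF-kB and to JNK and p38 kinases. The death domain receptor TNFRSF1A can also reach NF-kB, through TRAF2. Decoy receptors bind ligand without passing the signal on. In the pancreas the family is best known for NF-kB signalling in inflammation and for the sensitivity of tumour cells to death ligands.

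The antibody libraries held 14953255 to 15733280 counts in total and the others 10009711 to 14602784, so every antibody library was the deeper one. Replicate 1 without antibody stood apart from the other 3 of its arm, with chi-square values of 8.68 to 10.5 per degree of freedom over genes. Its replicate 4 was at 4.37 and 3.75 against replicates 2 and 3, and pairs of antibody libraries were at 1.68 to 3.52. The cells had the keratins of their epithelial label, with the 8 epithelial markers summing to 7320 to 7730 CPM (counts scaled to library size) with antibody and 6780 to 7770 without. Among them Epcam was called, as higher with antibody (log2 fold change 0.28, edgeR adjusted p = 0.0220). It lost its call in 5 of the 8 fits that left out a single library, with an edgeR adjusted p of at most 0.0752. The epithelial sum was mostly keratins and Cdh1. Over all 8 libraries Epcam averaged 22.8 CPM and Cldn4 2.95 CPM, and Cldn7 had 0 to 15 counts. Of 13 stellate or fibroblast markers other than Vim, Dcn and Lum were at 0 counts in all 8 libraries, and the sum was 26.8 to 54.4 CPM with antibody and 26.8 to 47.9 CPM without. The median of that sum was 41.0 CPM with antibody and 28.1 CPM without. In replicates 1 to 4 the sum was 45.7, 36.2, 26.8 and 54.4 CPM with antibody and 47.9, 27.2, 26.8 and 28.9 CPM without. The highest library without antibody was thus replicate 1, which stood apart above. Vim itself had 1100 ± 29.2 CPM with antibody and 1060 ± 73.5 CPM without. That is above the epithelial marker Cdh1, at 828 ± 16.3 and 859 ± 49.7 CPM. Of the 7 stellate markers tested, Vim included, 6 had positive log2 fold changes that did not pass the test (Col1a1 0.36, Col1a2 0.47, Col3a1 0.66 and Pdgfrb 0.61 among them). Pdgfra was lower with antibody and passed (log2 fold change -0.84, edgeR adjusted p = 0.00271). The part of these markers in the results on TNF family genes was not tested. Of 12 leukocyte markers 7 were at 0 in all libraries and Ptprc had 1 to 9 counts. Cd68 had 48 to 86 counts and a mean of 4.82 CPM over all 8 libraries. The leukocyte sum was 4.87 to 6.50 CPM with antibody and 4.79 to 6.28 without, most of it from Cd68. In bulk RNA, fewer cells of a type and less RNA per cell cannot be told apart.

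The family as a whole shifted in neither direction between the arms. Of the 28 tested members, 3 passed the threshold: the TRAF3-binding protein gene Traf3ip1 rose, and the ligand gene Tnfsf15 and the decoy receptor gene Tnfrsf23 fell. That is 10.7% of the members, where 8.4% of the 13626 genes tested were called (4.53% higher, 3.87% lower). The threshold was an adjusted p under 0.05 in the quasi-likelihood test of edgeR, corrected over all genes by Benjamini-Hochberg. The median log2 fold change, antibody over no antibody, was 0.00 for the members and 0.00 for all genes tested. Regardless of sign, its median size was 0.16 for the members against 0.09 for all genes tested. For the 15 members with a mean of at least 20 CPM that size was 0.06. Fold changes were positive for 14 members and negative for 14. An unadjusted edgeR p under 0.05 was found for 8 of the 28 members and for 2923 of the 13626 genes tested. The arms did not overlap in CPM for 5 members, 2 of them higher with antibody and 3 lower, against 14.3% of all genes tested (7.71% higher, 6.56% lower). Of the 15 members with a mean of at least 20 CPM, 14 had a 95% interval of the fold that lay between 0.8 and the inverse of 0.8, the exception being Traf3ip1. At any level, such intervals were found for 15 of the 28 members and for 8581 of the 13626 genes tested.

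**Figure D1:**
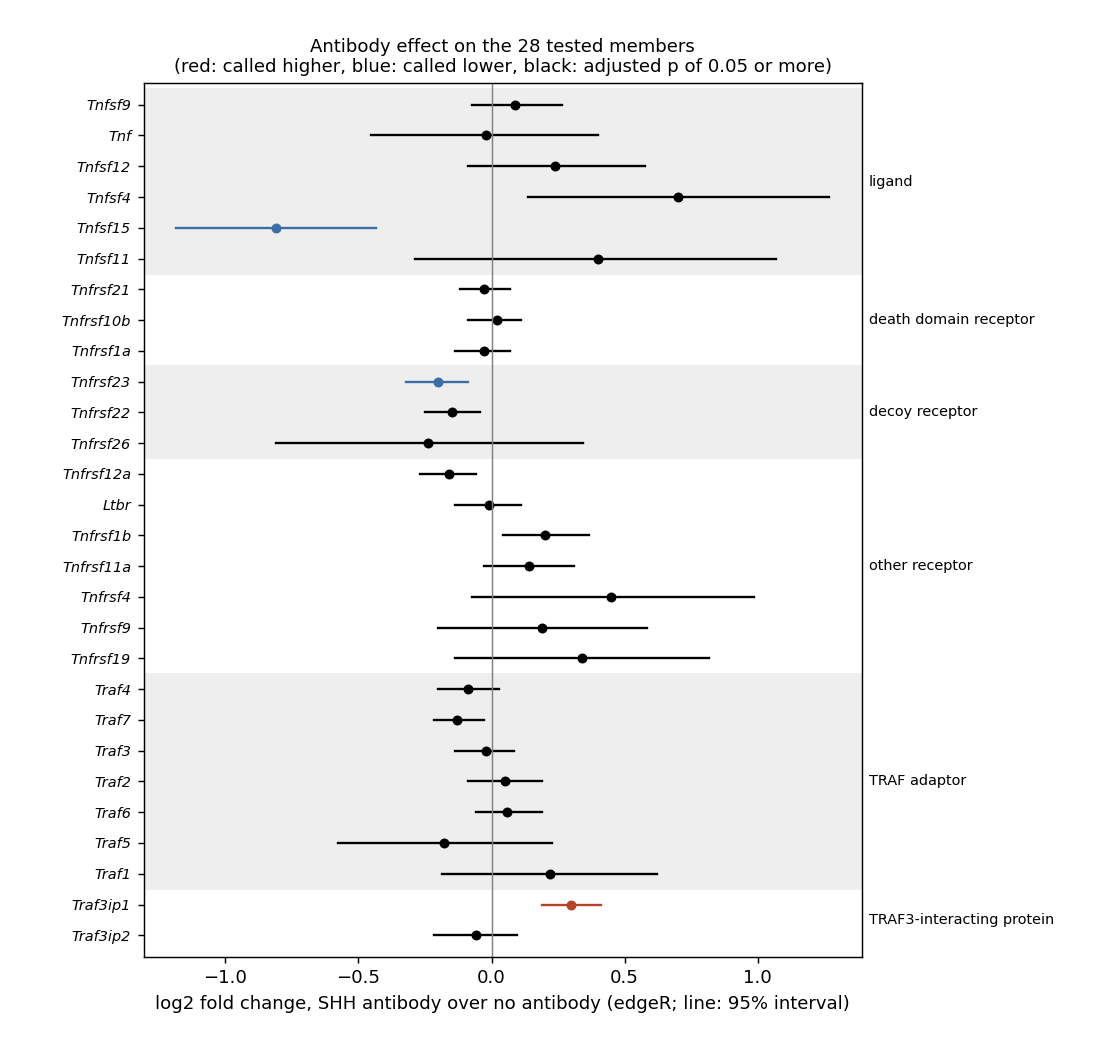
Log2 fold change (antibody over no antibody, horizontal axis) of each of the 28 tested members, grouped by role, with its 95% interval as a line. Traf3ip1 (red) lies above 0, Tnfsf15 and Tnfrsf23 (blue) lie below it, and the abundant receptors and TRAFs sit close to 0 with short intervals.

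Levels of different genes were compared with the authors' RPKM values, which are scaled by gene length. Tnfrsf12a, the receptor for the ligand TWEAK, stood far above all other members at 373 ± 29.9 RPKM (SD over all 8 libraries), in a range of 345 to 423, and above 99.3% of the genes tested. It made up 48.9% to 53.6% of the summed RPKM of the family in a library. The death domain receptor genes Tnfrsf21 (57.7 ± 1.93 RPKM) and Tnfrsf10b (42.9 ± 1.58 RPKM) came next, and the ranges of these top 3 did not overlap. Ltbr (35.8 RPKM), Tnfrsf1a (34.3 RPKM), Traf4 (32.4 RPKM), Tnfrsf23 (29.9 RPKM) and Traf7 (28.3 RPKM) formed a block in which the ranges of neighbours overlapped. Below them the best represented ligand gene was Tnfsf9 at 19.6 RPKM, whose range overlapped that of Traf3ip1 at 16.7 RPKM. Receptors thus were the abundant part of the family and ligands the scarce part: death domain receptors made up 17.0% to 19.6% of the family's RPKM in a library, TRAF adaptors 10.8% to 12.0%, and all ligands together 3.04% to 3.84%.

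**Figure D2:**
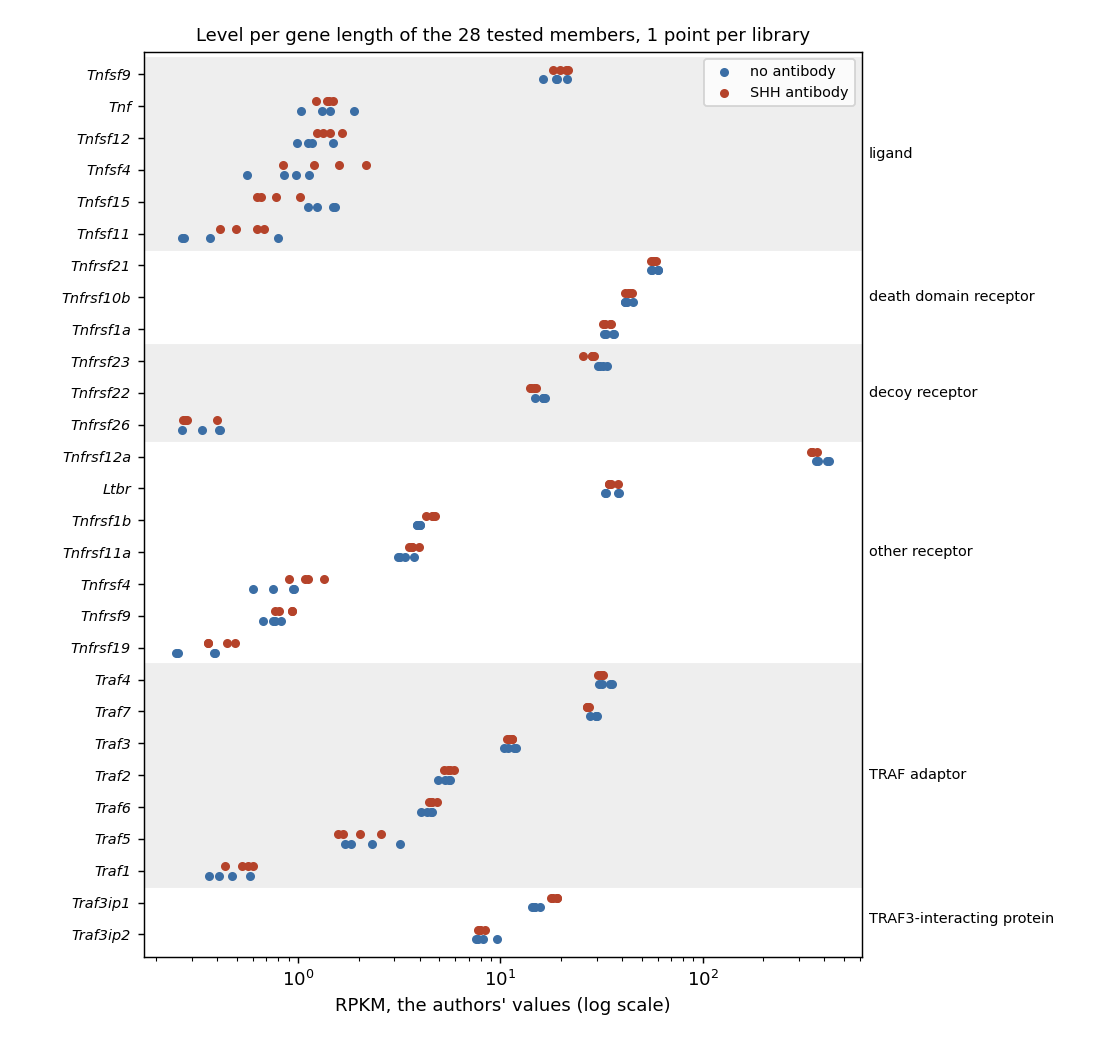
RPKM (log axis) of the 28 tested members in each of the 8 libraries, 1 point per library, antibody in red and no antibody in blue, grouped by role. Tnfrsf12a lies near 373 RPKM, a group of receptors and TRAFs between about 28.3 and 57.7 RPKM, and every ligand except Tnfsf9 below 3 RPKM.

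Among ligands, Tnfsf15 was lower with the antibody and the rest did not pass the test. Tnfsf15 encodes a TNF-like cytokine whose known receptor is TNFRSF25 (ENSMUSG00000050395, chr4:63727084-63745113, minus strand, GRCm38). Its level was 2.19, 2.10, 3.42 and 2.62 CPM in antibody replicates 1 to 4 and 5.07, 5.11, 3.75 and 4.18 CPM in the other arm, or 33 to 52 and 40 to 65 counts. All 4 antibody libraries lay below all 4 others, with the replicates numbered 3 of each arm closest to each other. The means were 2.58 ± 0.605 and 4.52 ± 0.673 CPM (SD, n = 4 each), which is 1.75-fold lower with antibody (log2 fold change -0.81 ± 0.18 SE, edgeR adjusted p = 0.00583). This was the largest change of any tested member, at a level of 1.06 RPKM, and it kept its direction and call under all 18 alternative settings. Its receptor gene Tnfrsf25 had 1 to 3 counts per library and was not tested.

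Tnf itself, the inflammatory cytokine that gives the family its name, was low and level. It had 1.99, 2.29, 2.44 and 2.35 CPM with antibody and 2.42, 3.10, 2.15 and 1.71 CPM without, with the antibody values inside the spread of the other arm. The 95% interval of its fold, 0.73 to 1.32, rests on 23 to 37 counts per library. Tnfsf9, the ligand of the costimulatory receptor TNFRSF9, was the most abundant ligand gene, with means of 24.9 ± 1.8 CPM (antibody) and 23.4 ± 2.62 CPM (none) and an interval of the fold from 0.95 to 1.20 (edgeR adjusted p = 0.573).

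Tnfsf4, the ligand of the T cell costimulator TNFRSF4, varied widely between libraries. It had 1.54, 2.92, 4.01 and 2.21 CPM with antibody and 2.10, 1.8, 1.03 and 1.57 CPM without, so that replicate 3 was the highest of its arm with antibody and the lowest without. The fold was 1.63 with an interval from 1.10 to 2.41 (edgeR adjusted p = 0.123), and the arms overlapped. It was called as higher without antibody replicate 1 (adjusted p = 0.0409) and with no filter on low counts (adjusted p = 0.0303). Tnfsf12, which encodes TWEAK, had 4.27 ± 0.547 CPM against 3.62 ± 0.636 CPM (edgeR adjusted p = 0.412). It overlaps Tnfsf13 and BC096441 on the same strand and 2010012P19Rik on the other, and so does Tnfsf13 with Tnfsf12 in its place. Part of the reads of Tnfsf12 and Tnfsf13 is therefore uncertain. Tnfsf11, the osteoclast factor RANKL, had 6 to 24 counts and an interval of the fold from 0.82 to 2.10.

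The other 9 ligand genes were too low for a test. Tnfsf10, which encodes the death ligand TRAIL, and Tnfsf14, a ligand of the lymphotoxin receptor, had 0 counts in all 8 libraries. A count of 3 corresponds to 0.191 to 0.300 CPM in these libraries, which is the limit that a count of 0 allows for counting error. Fasl, Lta, Ltb, Tnfsf8, Tnfsf13b and Tnfsf18 had at most 4 counts in any library, and Tnfsf13 had 2 to 14.

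Of the death domain receptors, 3 were abundant and level. Tnfrsf1a, the main receptor of TNF, had 90.2, 83.1, 91.8 and 85.8 CPM with antibody and 85.3, 93.4, 94.8 and 86.5 CPM without. The fold was 0.976 with a 95% interval from 0.91 to 1.05 (edgeR adjusted p = 0.764), and the libraries of the arms were interleaved. Tnfrsf10b, the mouse receptor of TRAIL, had 130, 136, 142 and 139 CPM with antibody and 136, 143, 131 and 131 CPM without, and the interval of the fold was 0.94 to 1.08. Tnfrsf21, known for roles in neuron and T cell death, had 207 ± 4.60 CPM with antibody and 212 ± 8.32 CPM without, with an interval from 0.92 to 1.05.

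Fas, the classical death receptor and 1 of 3 genes taken as markers of this family beside Tnfrsf1a and Ltbr, had few counts. It had 0, 2, 1 and 1 counts in the antibody libraries and 3, 0, 0 and 4 counts in the others, and was not tested. A transcript named FAS-AS1 overlaps it on the same strand in the table. How reads shared by both were counted is not given, so the low count of Fas is uncertain to that extent. As counted, both genes of the Fas ligand and receptor pair were near 0, whereas the TRAIL receptor gene was at 42.9 RPKM with its ligand gene at 0.

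Of the decoy receptors, Tnfrsf23 was lower with the antibody. Tnfrsf22, Tnfrsf23 and Tnfrsf26 lie side by side on chromosome 7, and the first 2 encode decoy receptors of TRAIL in the mouse. They are close copies, which bears on how their reads are counted. The coding sequences of Tnfrsf22 (594 bases) and Tnfrsf23 (528 bases) in the GENCODE M21 transcripts were identical at 80.6% of the columns of their alignment. Tnfrsf23 was identical to Tnfrsf26 at 43.7% of columns. Columns with a gap count as differences in both shares, so identity over paired bases alone is higher. The longest stretch without a difference between the coding sequences of Tnfrsf22 and Tnfrsf23 is 102 bases long, against a read length of 101 bases. It is shown in capitals with up to 40 bases on each side, read along the coding strand across an intron, because a single read inside it matches both genes, although its mate may tell them apart.
Tnfrsf23, chr7:143668546-143670888, minus strand, GRCm38: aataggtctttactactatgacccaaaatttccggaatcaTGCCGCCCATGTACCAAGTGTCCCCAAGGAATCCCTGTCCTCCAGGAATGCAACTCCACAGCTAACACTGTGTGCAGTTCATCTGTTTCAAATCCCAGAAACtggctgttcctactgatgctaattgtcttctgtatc
Tnfrsf22, chr7:143638386-143640808, minus strand, GRCm38: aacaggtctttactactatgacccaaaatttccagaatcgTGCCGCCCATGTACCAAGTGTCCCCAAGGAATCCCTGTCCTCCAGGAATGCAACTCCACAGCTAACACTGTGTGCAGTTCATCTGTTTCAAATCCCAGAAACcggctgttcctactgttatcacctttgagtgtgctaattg

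Over whole transcripts, 371 of the 4048 windows of 101 bases of Tnfrsf23 (9.17%) occur in Tnfrsf22 as well, and 0 occur in Tnfrsf26. The coding stretch shown is 102 bases long and can hold only a few of these 371 windows, so most of them are not inside it. With windows of 50 bases, 18.0% of those of Tnfrsf23 occur in Tnfrsf22. The values of Tnfrsf22 and Tnfrsf23 are uncertain by an amount that these shares do not measure, since how reads were counted is not given. Tnfrsf23 (ENSMUSG00000037613, chr7:143665809-143685872) had 85.0, 98.0, 95.3 and 95.2 CPM with antibody and 114, 109, 102 and 105 CPM without. The lowest library without antibody was above the highest with it, and antibody replicate 1 was the lowest of all. The means of 93.4 ± 5.71 and 108 ± 5.13 CPM give a 1.15-fold lower level with antibody (log2 fold change -0.20 ± 0.05 SE, edgeR adjusted p = 0.0180). With the same direction, the call was lost when antibody replicate 1 was left out (adjusted p = 0.0788). It was also lost in limma on RPKM, where the adjusted p was 0.0559 with a pseudocount of 1 and 0.0563 with one of 0.1.

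Its neighbour Tnfrsf22 had 59.8, 64.2, 63.0 and 60.9 CPM with antibody and 70.4, 69.8, 63.6 and 71.1 CPM without. Replicate 3 without antibody lay among the antibody values, and the other 3 lay above them. The log2 fold change was -0.15 ± 0.05 SE (edgeR adjusted p = 0.0833), and it was called as lower when that library was left out (adjusted p = 0.0395). The second Tnfrsf22 entry of the table lies inside the first on the same strand and had 0 counts in all libraries. Tnfrsf26 was scarce, with 8 to 18 counts. Tnfrsf11b, the decoy receptor of RANKL known as osteoprotegerin, did not enter the test, with 8, 12, 22 and 10 counts in the antibody libraries and 7, 5, 5 and 8 in the others.

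Tnfrsf12a, the TWEAK receptor and a gene induced by growth factors, missed the threshold narrowly. It had 353, 332, 334 and 336 CPM with antibody and 402, 409, 359 and 349 CPM without. Replicates 1 and 2 without antibody were the high ones, while its replicate 4 lay below the highest antibody library. The log2 fold change was -0.16 ± 0.05 SE (edgeR adjusted p = 0.0583). Its fold had a 95% interval of 0.83 to 0.96. It was called as lower when no-antibody replicate 3 (adjusted p = 0.0453) or 4 (adjusted p = 0.0177) was left out, without no-antibody replicates 1 and 4 together (adjusted p = 0.00207), with DESeq2 (adjusted p = 0.0366) and with no filter on low counts (adjusted p = 0.0347).

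**Figure D3:**
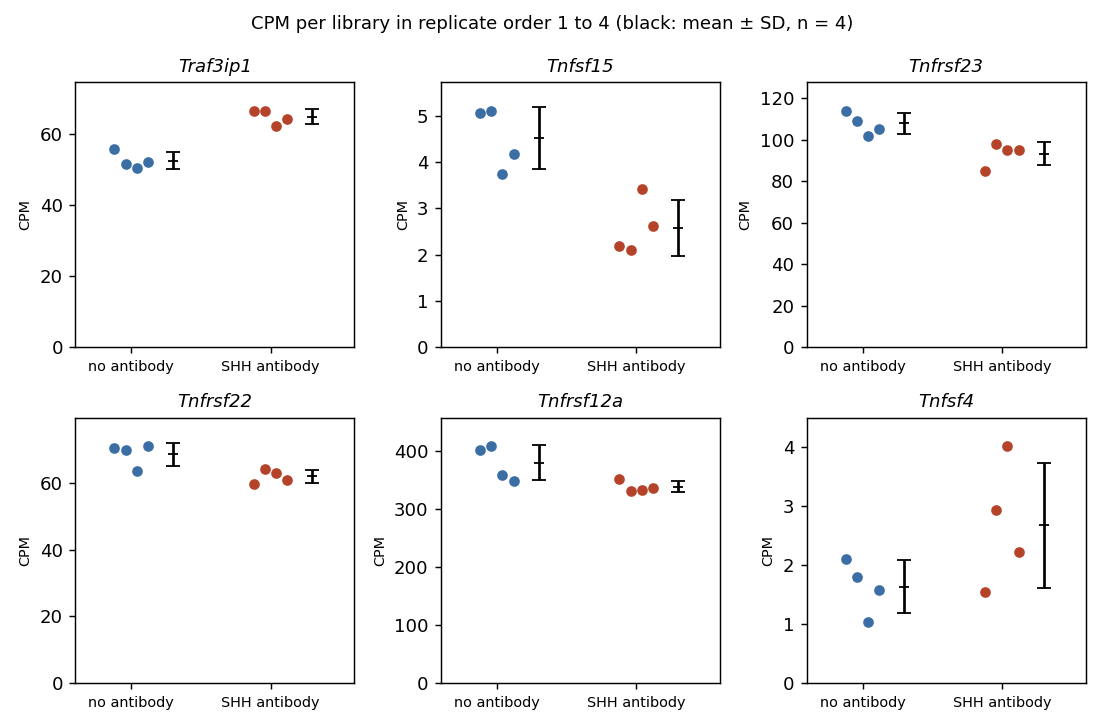
CPM (vertical axis, from 0) in each library of the 3 called members Traf3ip1, Tnfsf15 and Tnfrsf23, and of Tnfrsf22, Tnfrsf12a and Tnfsf4, with black bars for mean ± SD (n = 4). The arms do not overlap in the 3 called members and overlap in the other 3.

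Ltbr, the receptor of lymphotoxins that feeds the non-canonical NF-kB pathway, was level. It had 89.6, 81.4, 83.1 and 81.3 CPM with antibody and 79.6, 91.3, 90.4 and 77.4 CPM without, with an interval of the fold from 0.91 to 1.08 (edgeR adjusted p = 0.950). Its ligand genes Lta, Ltb and Tnfsf14 had between 0 and 4 counts in these cells. Tnfrsf1b, the second TNF receptor, had 17.6, 17.7, 16.3 and 18.2 CPM with antibody and 15.6, 14.8, 14.9 and 15.3 CPM without, so that all antibody libraries were above the others. The change was 1.15-fold and did not pass after adjustment (log2 fold change 0.20 ± 0.08 SE, edgeR adjusted p = 0.125). Tnfrsf11a, the receptor of RANKL, had 18.6 ± 1.05 CPM against 17.0 ± 1.40 CPM (edgeR adjusted p = 0.365).

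The receptors better known from lymphocytes were scarce. Tnfrsf9, Tnfrsf4 and Tnfrsf19, the last of these a receptor of epithelial and neural progenitors, had between 11 and 40 counts per library, and their fold changes carried intervals that included 1. Cd40 had 2 counts in antibody replicate 1, 1 count in replicate 1 without antibody and 0 in the other 6 libraries. Tnfrsf17 had 0 counts in all libraries, and Tnfrsf8, Tnfrsf13b, Tnfrsf13c, Tnfrsf14 and Tnfrsf18 had at most 7. Ligand and receptor genes of a pair were both tested for Tnf with Tnfrsf1a and Tnfrsf1b, Tnfsf12 with Tnfrsf12a, Tnfsf9 with Tnfrsf9, Tnfsf4 with Tnfrsf4, and Tnfsf11 with Tnfrsf11a, and none of these genes was called.

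None of the 7 TRAF adaptor genes passed the test, and 1 of them had an unadjusted p under 0.05, against 2923 of the 13626 genes tested. Traf4, which is abundant in epithelia, led them per length at 32.4 RPKM, followed by Traf7 at 28.3 RPKM and Traf3, a brake on non-canonical NF-kB signalling, at 11.2 RPKM. Traf2, the adaptor of TNF receptor signalling, stood at 5.49 RPKM and Traf6, which serves interleukin 1 and Toll-like receptors, at 4.51 RPKM. Traf5 (2.12 RPKM) and Traf1, itself a target of NF-kB (0.495 RPKM), were the lowest, with 22 to 78 counts.

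Traf7, a kinase-binding ubiquitin ligase that lacks the common TRAF domain, showed the closest agreement among antibody libraries. It had 160, 158, 159 and 159 CPM with antibody and 179, 176, 175 and 164 CPM without, so that the arms did not overlap. The change was 1.09-fold lower with antibody (edgeR adjusted p = 0.0924), and it was called when no-antibody replicate 4 was left out (adjusted p = 0.0286) or when no-antibody replicates 1 and 4 both were (adjusted p = 0.00768). Traf7 overlaps Rab26 on the same strand and Caskin1 on the other. Traf4 was also called as lower without those 2 libraries (log2 fold change -0.17, adjusted p = 0.00580, against -0.09 and adjusted p = 0.366 with all). Traf2, Traf3 and Traf6 had intervals of the fold from 0.94 to 1.14, 0.91 to 1.06 and 0.96 to 1.14.

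Traf3ip1 rose with the antibody. Its product binds TRAF3 and microtubules and is best known as a subunit of the intraflagellar transport machinery, which builds cilia. The gene (ENSMUSG00000034292, chr1:91494668-91529303, plus strand, GRCm38) had 66.4, 66.4, 62.1 and 64.0 CPM with antibody and 55.7, 51.6, 50.3 and 52.0 CPM without. The lowest antibody library was above the highest of the other arm. The means of 64.7 ± 2.11 and 52.4 ± 2.33 CPM correspond to a 1.23-fold rise (log2 fold change 0.30 ± 0.05 SE, 95% interval of the fold 1.14 to 1.33, edgeR adjusted p = 0.000654). It had the smallest p of all tested members and was called in all 18 alternative settings. Traf3ip2, an adaptor of the interleukin 17 receptor, had 29.5 ± 1.06 CPM against 30.8 ± 3.41 CPM (edgeR adjusted p = 0.693), and Traf3ip3 had at most 2 counts.

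The spread between libraries was smaller with the antibody, in the members and over all genes. Among the 15 members of at least 20 CPM, the coefficient of variation over 4 libraries had a median of 3.31% with antibody and 5.33% without, and it was the larger one without antibody in 14 of them. Over all 8085 tested genes of that level the medians were 3.71% and 6.45%, and 79.4% of these genes varied more without antibody. That arm had the lower library totals, and its replicate 1 stood apart from the others. The part of either in the spread was not tested.

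Downstream of the receptors, most signalling partners were level and a few moved. All 32 genes of a list of adaptors, caspases, ubiquitin-editing enzymes and kinases of TNF receptor signalling were tested, of which 2 rose and 3 fell, or 15.6% against 8.4% of all genes. Their log2 fold changes had a median of 0.01 and, regardless of sign, a median size of 0.06 against 0.09 over all genes tested. Tnfaip3, which encodes the ubiquitin-editing inhibitor A20, had the largest change of the called ones, from 82.1 to 89.6 CPM without antibody and from 58.9 to 67.7 CPM with it (log2 fold change -0.50 ± 0.05 SE, edgeR adjusted p = 2.89e-06). Cflar, which encodes the caspase-8 inhibitor FLIP, went from 159 ± 7.23 to 138 ± 5.90 CPM (log2 fold change -0.20, edgeR adjusted p = 0.0113). Spata2, which links the deubiquitinase CYLD to the receptor complex, fell as well (-0.25, edgeR adjusted p = 0.0165). Spata2 overlaps Rnf114 on the other strand, and the strand setting of the counting is not given.

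Of the 2 partners that rose, Ikbkg encodes NEMO, the regulatory subunit of the IKK complex, and went from 133 ± 6.75 to 155 ± 3.70 CPM (log2 fold change 0.22, edgeR adjusted p = 0.00483). It overlaps G6pdx on the other strand, and the strand setting of the counting is not given. Map3k5, the stress kinase ASK1, rose by 0.19 on the log2 scale (edgeR adjusted p = 0.0289). The call of Map3k5 was lost when antibody replicate 2, 3 or 4 was left out singly (adjusted p = 0.0792, 0.134 and 0.0676) and when no-antibody replicate 2 was (adjusted p = 0.0772). That of Spata2 was lost on leaving out antibody replicate 2, 3 or 4 (adjusted p = 0.0515, 0.0730 and 0.0667) or no-antibody replicate 4 (adjusted p = 0.0599). In limma on RPKM, with a pseudocount of 1 and of 0.1, the adjusted p was 0.0881 and 0.0874 for Map3k5, 0.0764 and 0.0736 for Spata2, and 0.0532 and 0.0530 for Cflar, so these 3 calls were lost there. Fadd, Tradd, Ripk1, Casp8, Birc2, Birc3 and the other 21 partners did not pass the test.

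Genes that TNF is known to induce were mostly lower with the antibody where they were called. Of 22 such genes, 18 were tested, 8 fell and 1 rose, or 50% against 8.4% of all genes tested, with a median log2 fold change of -0.16. Earlier results of these samples already showed several of these genes lower, so the count is not independent evidence of a direction. It was 5 without antibody replicate 3 and 5 without replicate 2 of the other arm. Ier3, an early survival gene, had 211 to 252 CPM with antibody and 355 to 434 without (log2 fold change -0.77 ± 0.06 SE, edgeR adjusted p = 4.64e-08). Cxcl5, a neutrophil chemokine, had 30.8 to 41.5 CPM with antibody and 62.5 to 75.5 without (-0.90 ± 0.07 SE, edgeR adjusted p = 1.03e-07). Csf1, the macrophage growth factor, fell from 33.9 ± 2.52 to 26.4 ± 1.6 CPM (log2 fold change -0.35, edgeR adjusted p = 0.00218), and Gadd45b, a stress sensor, from 22.1 ± 0.702 to 17.0 ± 1.58 CPM (-0.38, edgeR adjusted p = 0.00364). Cxcl1, another neutrophil chemokine, fell with overlapping arms (-0.42, edgeR adjusted p = 0.00703).

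Vcam1, an adhesion molecule, was the 1 gene of the list that rose, from 19.9 ± 2.29 to 24.8 ± 0.474 CPM (log2 fold change 0.31, edgeR adjusted p = 0.0151), a call lost when antibody replicate 3 (adjusted p = 0.0543) or no-antibody replicate 2 (adjusted p = 0.0513) was left out. The other 3 that fell were Csf2, Cxcl2 and Tnfaip2 (edgeR adjusted p = 0.0376, 0.0384 and 0.0381). Of the 8 fits that left out a single library, 6 lost the call of Csf2 (adjusted p up to 0.147), 7 that of Cxcl2 (up to 0.122) and 6 that of Tnfaip2 (up to 0.164). Ier3, Cxcl5, Csf1, Gadd45b and Cxcl1 kept theirs in all 18 alternatives. The NF-kB feedback and subunit genes of the list were not among the called ones. This holds for the list as drawn, which leaves out the inhibitor gene Tnfaip3. Placed with the signalling partners, Tnfaip3 was called as lower (log2 fold change -0.50, edgeR adjusted p = 2.89e-06). Nfkbia, the inhibitor that NF-kB induces against itself, had 25.1 ± 1.17 CPM against 24.8 ± 1.71 CPM (edgeR adjusted p = 0.906), and Nfkb2, Relb, Bcl3, Nfkbie, Icam1 and Sod2 did not pass either. How the called genes relate to the levels of TNF family members was not tested.

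**Figure D4:**
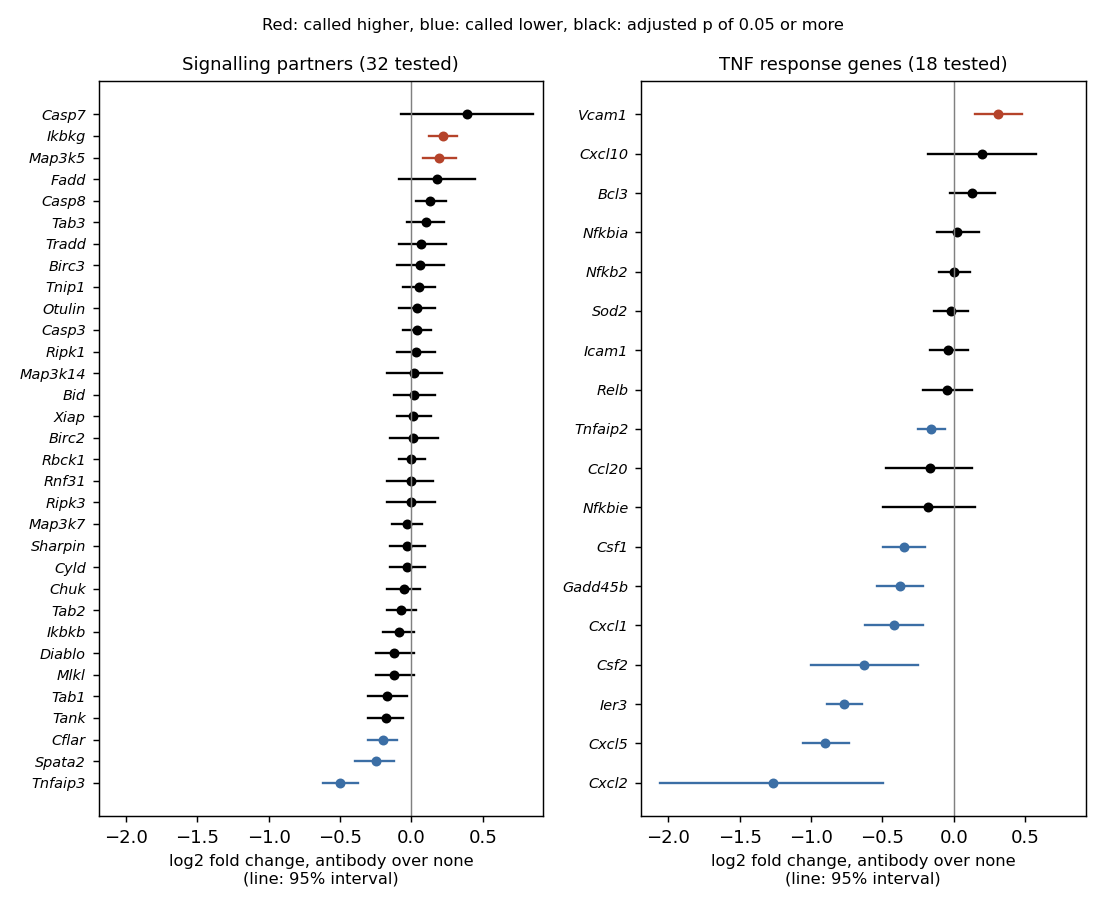
Log2 fold change (antibody over no antibody) with its 95% interval for the 32 signalling partners (left) and the 18 tested TNF response genes (right), on the same horizontal scale. Most partners lie close to 0, with Tnfaip3 the lowest at -0.50, while 8 response genes (blue) lie below 0 and Vcam1 (red) above it.

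Of 10 family or related genes whose symbols fall outside the naming rule, 3 were tested and none was called by edgeR. An unadjusted p under 0.05 was found for 1 of them, against 2923 of the 13626 genes tested. Eda, the ligand ectodysplasin, had 29 to 57 counts and Relt, a receptor of the family, 25 to 47. Tnfaip8, a TNF-induced inhibitor of cell death, had 38.9 ± 0.966 CPM with antibody and 34.2 ± 2.64 CPM without (edgeR adjusted p = 0.0730). Without replicate 1 of the arm without antibody, 1 of these genes was called. Ngfr, Cd70 and Cd40lg were at 0 counts in all 8 libraries.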

How the data were processed

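Strand-specific polyA libraries of sorted cancer cells, 4 per arm, were sequenced in paired reads of 101 bases, per the labels' protocols. Per the submitters' processing notes, CASAVA 1.8.2 and TopHat2 2.0.9 were used with the mouse genome GRCm38 (mm10). How reads were counted (tool, annotation release, strand) is not given in the sources used here. Raw counts per Ensembl gene, and RPKM values, which the authors scaled by gene length and by counted reads, were deposited for the same 8 libraries. In both tables the column names equal the sample titles, in which minus marks the libraries with antibody. The treatment label set the arms, since the protocol text is the same for all 8 samples.

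The test was the quasi-likelihood F test of edgeR 4.0.16 (R 4.3.3) on the counts, with TMM scaling and no term but the arm. filterByExpr left 13626 of 39179 genes, and p-values were adjusted over all of them by Benjamini-Hochberg. A gene is called at an adjusted p under 0.05. Standard errors come from the F statistic, intervals are at 95%, and CPM are counts scaled with TMM library sizes, as mean ± SD over 4 libraries. These intervals take in the spread between libraries, whereas the floor of 3 counts covers counting error only. The procedure was also run on simulated counts, drawn with the same dispersion per gene in both arms. That simulation does not cover the unequal spread of the arms in these data.

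Named were all called members, Tnfrsf1a, Fas, Ltbr, Tnf and Cd40, every other tested member at least by its level, and of the other lists all called genes, or the 6 with the smallest p. Outside that rule, Csf2, Cxcl2, Tnfaip2, the collagen genes and Pdgfrb, the genes of other lists named as not called and those named as at 0 counts were chosen after their values were seen. The levels of Cdh1, Cldn4, Cldn7, Vim, Cd68 and Cdh5 were likewise added with their values known. The members and lists were chosen with earlier results of these data known. Marker lists cover epithelial, stellate, leukocyte and endothelial cells. The 6 endothelial markers summed to 12.9 to 14.5 CPM with antibody and 11.7 to 13.3 without. Most of that sum came from Cdh5, at 121 to 209 counts and a mean of 12.0 CPM over all 8 libraries. All 104 listed genes were found, Otulin and Adgre1 through their Ensembl identifiers. Coding sequences are from GENCODE M21 on GRCm38, the build of the files. The alternatives left out each library in turn, or no-antibody replicates 1 and 4 together. Others changed the scaling (RLE, upper quartile), the filter (none, or 1 CPM in 4 libraries), the design (replicate number as a block) or the tool (DESeq2 1.42.0, limma 3.58.1 with voom, and limma on log2 RPKM with pseudocounts of 1 and 0.1). One further element of the genotype is not reported here.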

Additional observations from a re-analysis of the deposited data

Results flagged for a closer look

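Within an arm, 56 sets of 4 values (28 members in 2 arms) were checked for a library that stands apart from the other 3, which chance gives in about 1 of 20 sets, and 2 were found. Tnfrsf26 had 1.18 CPM in antibody replicate 3, against 0.805 to 0.836 CPM in the other 3 antibody libraries, a difference of 18 counts against 12 or 13. Tnfrsf22 had 63.6 CPM in replicate 3 without antibody, against 69.8 to 71.1 CPM in the other 3 libraries of that arm. Without that library Tnfrsf22 was called as lower with the antibody (log2 fold change -0.19, edgeR adjusted p = 0.0395), where it was not with all 8 (adjusted p = 0.0833).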

How the results depend on the processing

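Tnfsf15 and Traf3ip1 kept their direction and call in all 18 alternatives. The number of members called lower, 2, became 3 with DESeq2 and with no filter, 1 on log2(RPKM + 1) and log2(RPKM + 0.1), 5 without replicates 1 and 4 of the arm without antibody, and 1 to 4 without single libraries. The number called higher, 1, became 2 with no filter and ranged from 1 to 2 without single libraries. Over all genes, 1144 calls became 675 on log2(RPKM + 1), 670 on log2(RPKM + 0.1), 2263 without replicates 1 and 4 of the arm without antibody, and 679 to 1485 without single libraries (679 without antibody replicate 2 and 695 without antibody replicate 3). The 5 signalling partners called became 2 on both RPKM scales, 9 without those 2 libraries and 3 to 6 without single ones. The 9 response genes ranged from 5 to 7 without single libraries. The genes outside the naming rule went from 0 to 1 without those 2 libraries and from 0 to 1 without single ones. The cause of these changes was not tested, beyond fewer libraries where some were left out.

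Some values, most of them close to 0, changed sign in some alternatives and stayed uncalled. Traf5 was further from 0, at -0.18 with all 8 libraries, and turned to 0.015 when no-antibody replicate 2 was left out. Without replicates 1 and 4 of the arm without antibody, Tnfrsf10b had -0.0054 and Tnfsf9 -0.0059, and with voom Tnf had 0.0026. Without single libraries, the log2 fold change ranged from -0.34 to 0.015 for Traf5, from -0.054 to 0.027 for Ltbr, from -0.1 to 0.011 for Traf3ip2, from -0.00096 to 0.044 for Tnfrsf10b, from -0.051 to 0.002 for Traf3 and from -0.17 to 0.12 for Tnf.

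The replicate number as a block gave 1005 calls over all genes, with 2 members lower and 1 higher as before. Libraries with the same number did not deviate together (correlations of -0.0285 to 0.00662 over 13626 genes), so the numbers give no pairing. Low counts limit what can be said of the 21 members not tested and of ligands under 5 CPM.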
